A study of Mus musculus with 12 samples.

Results

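Among the mito-piRNAs of mouse embryonic gonadal cells, 13 sequences differed from the mitochondrial DNA (mtDNA) at an internal base. They were chosen by sequence alone: the best match of each to the 16299 bases of the mtDNA in the GRCm39 assembly, on either strand, had exactly 1 mismatch, and that mismatch lay at any base other than the last. These were 13 of the 204 unique sequences listed over the 12 libraries, and they held 9014 reads, or 2.235% of the mito-piRNA reads. The libraries were prepared from primordial germ cells (PGCs) and somatic cells (SCs) that had been separated with CD15 beads from female and male gonads of CD1 embryos at embryonic days E11.5, E12.5 and then E13.5. Each of the 12 combinations of cell type, sex and day was 1 library made from pooled gonads of several embryos, and the labels name no mutation or treatment. A library is written as PGC11F for PGCs of females at E11.5, and so on. The deposited lists hold small RNA reads and no mRNA, so the cell types could not be checked by marker genes.

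A list holds raw read counts of the sequences that the authors called mito-piRNAs, and it leaves out every sequence under their cut-off of 10 CPM (counts scaled to a library total of 1000000). Between 41 and 103 sequences were listed in a library, with 16061 to 59545 reads in all. The lowest count listed was between 66 and 109 reads, so a sequence that is absent from a list may have been present below that level. Levels are given below as rpm, reads scaled to 1000000 of the library's small RNA reads that lie above the cut-off, and the lowest level listed was between 14.55 and 17.79 rpm. PGC13F stood apart from the rest in the 3′ ends of its sequences. It did not list 10 sequences that the other 11 libraries all listed, against 0 to 5 such gaps elsewhere, and it was alone in listing 30, of which 20 were 1 base longer or shorter than another listed sequence. Sequences ending in A held 38.1% of its reads and those ending in C 6.844%, against 2.663% to 7.905% and 25.6% to 39.53% in the others. Some results that rest on it, among them the PGC means, are given with and without it. The means of females and of E13.5 are given with it.

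PIWI-interacting RNAs (piRNAs) are small RNAs bound by PIWI proteins, best known for silencing transposons in germ cells. Fragments of ribosomal and transfer RNAs are also found in small RNA libraries of many cell types. The nuclear genome holds copies of mtDNA, called NUMTs, which are inherited with the chromosomes and can differ from the mtDNA by a few bases. A sequence with an internal mismatch can therefore be read against the mtDNA, a NUMT or another nuclear gene. Mature mitochondrial tRNAs carry modified bases, among them methylated purines at base 9 of many of these tRNAs and a methylated cytosine just before the anticodon in a few, and an enzyme adds the letters CCA to their 3′ end.

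The 13 sequences fell at 7 positions of the mtDNA and had 8 different 5′ ends. All 13 lay in the sense orientation of the gene that holds them, which was a ribosomal RNA gene for 4, a tRNA gene for 5 and the protein-coding gene mt-Nd3 for 4. Of these, 12 are shown 5′ to 3′ as deposited, with the mismatched base in capitals, because the place of that base is what separates them from the rest of the mito-piRNAs. Substitutions are written with the base of the mtDNA first, then the position counted from 1 at the 5′ end of the sequence, then the base of the sequence.

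The first set lay in the ribosomal RNA genes mt-Rnr1 (12S) and mt-Rnr2 (16S), and is shown because its members held most of the reads.
mt-Rnr1 16-nt, T2A: aAaagtcgtaacaagg
mt-Rnr1 17-nt, T2A: aAaagtcgtaacaaggt
mt-Rnr2 17-nt, T16A: taatggttcgtttgtAc
mt-Rnr2 16-nt, T15A: aatggttcgtttgtAc

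The second set lay at the start of mt-Nd3, which encodes a subunit of respiratory complex I, and is shown because its members share their 5′ end and their mismatch. Another member of 18 nt, also T3C and with the same 5′ end, is named without its letters.
mt-Nd3 20-nt, T3C: atCaacctgtacactgttat
mt-Nd3 21-nt, T3C: atCaacctgtacactgttatc
mt-Nd3 27-nt, T3C: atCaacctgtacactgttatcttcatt

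The third set lay in the tRNA genes for valine (mt-Tv), asparagine (mt-Tn), serine with anticodon TGA (mt-Ts1) and glutamate (mt-Te), and is shown for the place of the mismatch within each tRNA.
mt-Tv 29-nt, A28C: agatttcatgaccaatgaacactctgaCc
mt-Tn 18-nt, A9G: tagattgaGgccagtaat
mt-Ts1 31-nt, C29T: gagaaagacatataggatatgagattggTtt
mt-Ts1 30-nt, C29T: gagaaagacatataggatatgagattggTt
mt-Te 29-nt, A9T: gtttctgtTgttgaattacaacgatgatt

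In 6 sequences with 7630 reads the mismatch was within the first 3 bases. In 4 sequences with 950 reads it was at the base before the last, and in 2 sequences with 256 reads it was at base 9. The sequences were 16 to 31 nt long (median 20 nt), and 8 of them started at the first base of their gene. An exact match in the nuclear chromosomes was found for 7 of the 13, and these 7 held 7760 reads, 86.09% of the reads of the group. The exact matches lay at 3 loci: a nuclear ribosomal RNA gene for the mt-Rnr1 pair, an annotated pseudogene for the 4 mt-Nd3 sequences, and an intron for mt-Tn 18-nt.

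The mt-Rnr1 pair was placed on mtDNA positions 978 to 993 and 978 to 994, with the mismatch at position 979. Both sequences matched exactly, and in sense, the nuclear gene Rn18s-rs5, which is annotated as 18S rRNA, the RNA of the small subunit of the cytoplasmic ribosome. The match spans chr17:40159045-40159060 (GRCm39, forward strand) for the 16-nt sequence and ends 1 base later for the 17-nt sequence. These are bases 1802 to 1818 of the 1849 bases of the annotated gene, with 31 bases between the longer match and the annotated 3′ end. The surroundings are shown with 20 bases on each side, set base against base without gaps. Capitals mark the bases that differ, so that the run of shared bases can be seen.
Rn18s-rs5, chr17:40159025-40159081, forward strand: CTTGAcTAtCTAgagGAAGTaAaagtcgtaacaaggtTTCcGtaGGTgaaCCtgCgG
mt-Rnr1, chrM:958-1014, forward strand: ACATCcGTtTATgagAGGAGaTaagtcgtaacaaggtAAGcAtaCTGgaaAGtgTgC

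In this comparison without gaps, 5 of 20 bases were the same before the 17-nt match and 9 of 20 after it. Over 100 bases the counts were 19 before and 30 after. Such counts do not show whether the 2 genes are related, which was not tested. No listed sequence of any library held the mtDNA base at position 979, and none of the other sequences overlapped the pair on that strand. All 6392 reads at this place thus carried the base of the 18S rRNA.

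The 4 mt-Nd3 sequences started at the first base of the gene, mtDNA position 9459. Their mismatch at position 9461 is the third base of the first codon (att in the assembly, atC in the reads). They matched exactly, and in sense, the first bases of the pseudogene Gm28438, also annotated as an exon of the lncRNA Gm71269, at chr1:24652174-24652200 on the reverse strand for the longest. Here the nuclear copy and the mtDNA are shown with 20 bases on each side.
Gm28438, chr1:24652154-24652220, reverse strand: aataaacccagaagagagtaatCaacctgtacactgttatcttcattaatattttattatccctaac
mt-Nd3, chrM:9439-9505, forward strand: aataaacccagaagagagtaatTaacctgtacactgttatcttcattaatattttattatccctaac

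This nuclear copy was nearly the same as the mtDNA over a long stretch. From mtDNA position 6394 to 9828, that is chr1:24651831-24655265, the assembly's nuclear and mitochondrial bases differed at 1 of 3435 positions, and that position was 9461. Of the 17 listed sequences that lie within the stretch, with 31970 reads, the 4 mt-Nd3 sequences were the ones that cover it. Both copies have the same bases at the other positions of the stretch, so the letters of the remaining sequences, whether they match exactly or not, do not favour one copy over the other. No listed sequence held the mtDNA base at position 9461, so all 1238 reads there carried the base of the nuclear copy. The assembly is that of the C57BL/6J strain whereas the embryos were CD1, and the mtDNA of CD1 mice was not analysed here. A transcript of the nuclear copy and an mtDNA that carries C at position 9461 in CD1 cannot be told apart with these counts.

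The mt-Tn 18-nt sequence covered the first 18 bases of the tRNA, mtDNA positions 5142 to 5159 on the reverse strand, with its mismatch at base 9. Its exact nuclear match, chr6:12391780-12391797 on the forward strand, lay in an intron of Thsd7a, antisense to that gene. The flanks of this match were unlike those in the mtDNA, with 7 of 20 bases the same before it and 6 of 20 after it. The other tRNA sequence with a mismatch at base 9, mt-Te 29-nt (mtDNA positions 14111 to 14139, reverse strand), had no exact nuclear match. It had 1 nuclear match that differed from it at 1 base. Both tRNA sequences begin at the first base of the tRNA, so that base 9 of the sequence is also base 9 of the tRNA gene.

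The mt-Te sequence was the one member for which the exact mtDNA sequence of the same start and length was also listed. In SC13F, the library that listed it, the mismatched sequence had 126 reads and the exact sequence 133 reads. The mismatched share was 48.65% (95% Wilson interval 42.63% to 54.71%, counting error only). The exact sequence was listed in 4 other libraries, with 95 reads in PGC11M, 114 in PGC12M, 143 in PGC13F and 88 in SC12M, and none of these listed the mismatched sequence. The lowest listed counts there were 83, 92, 90 and 85 reads, so the mismatched sequence may have been present below those levels.

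The 2 mt-Ts1 sequences started at the first base of the tRNA, mtDNA position 6938 on the reverse strand, and carried T in place of C at base 29, mtDNA position 6910. The anticodon TGA occupies bases 31 to 33 of this gene, so the mismatch lies 2 bases before it. From the same first base, 7 sequences of 16 to 26 nt matched the mtDNA exactly, with 30008 reads in all, and none of these reaches base 29. Both listed sequences that do reach it carried T. They had 2 nuclear matches each with 1 mismatch, on chromosomes 1 and 2, and none without. The match on chromosome 1 lies in the same stretch as the mt-Nd3 copy, where the nuclear bases are otherwise those of the mtDNA.

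The mt-Tv 29-nt sequence began at base 43 of the 69-base tRNA, mtDNA position 1067, and ran 2 bases past the annotated 3′ end at position 1093. Those 2 bases were CC, the first of which differed from the mtDNA, where position 1094 is the first base of the 16S rRNA. In contrast, 29 listed sequences that start at position 1094 carried the mtDNA base there, with 115375 reads in 12 of 12 libraries. This was the one member without any nuclear match at up to 1 mismatch.

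The mt-Rnr2 pair ended at mtDNA position 2485, with the mismatch at position 2484, base 1391 of the 16S rRNA. No exact nuclear match was found for either sequence, whereas 5 and 14 matches with 1 mismatch lay in the chromosomes for the 17-nt and the 16-nt sequence. No listed sequence held the mtDNA base at position 2484. An exact 18-nt sequence, tattaatggttcgtttgt, ended at the base before it, position 2483, and had 116 reads in SC11F alone.

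The mt-Rnr1 16-nt sequence was the most abundant member, with 5851 reads, and the one listed in 12 of 12 libraries. In PGCs its level was 97.12 rpm in PGC11F, 111.9 in PGC11M, 156.9 in PGC12F, 159.9 in PGC12M, 113.9 in PGC13F and 72.61 in PGC13M. In SCs it was 33.86 rpm in SC11F, 109.2 in SC11M, 49.59 in SC12F, 85.06 in SC12M, 52.74 in SC13F and 26.02 in SC13M. PGCs were higher in 6 of 6 pairs of the same sex and day, by a ratio of 1.025 (males, E11.5) to 3.164 (females, E12.5). The ranges of both cell types overlapped, since SC11M and SC12M lay above PGC13M. Without PGC13F and its partner, PGCs were higher in 5 of 5 pairs. A difference of this kind, with PGCs above SCs in all pairs, was found for 2 of 97 sequences (2.06%) and for 1 of the 17 sequences listed in every library (5.88%), the 16-nt sequence itself.

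The mean of the 6 PGC libraries was 118.7 ± 34.11 rpm (SD), and that of the 6 SC libraries was 59.41 ± 31.76 rpm (SD). Without PGC13F the PGC mean was 119.7 ± 38.05 rpm (SD, 5 libraries). In edgeR's quasi-likelihood fit, which also held sex and day, the log2 difference of SCs from PGCs was -1.03 (standard error 0.66, adjusted p = 0.750). An exact permutation test over all 924 splits gave a two-sided p of 0.01515 and an adjusted p of 0.1837 over the 97 sequences. The difference thus did not pass either test once all sequences were counted, although all pairs had the same sign. Between the sexes the levels lay at 84.01 ± 47.02 rpm in females and 94.11 ± 44.84 rpm in males (SD, n = 6 each; edgeR adjusted p = 0.955), a direction that turned with other normalizations. The means of the days E11.5, E12.5 and E13.5 were 88.01 ± 36.67, 112.9 ± 54.56 and 66.3 ± 37 rpm (SD over 4 libraries each; edgeR adjusted p = 0.899). The share that this sequence and its 17-nt partner took of a library's mito-piRNA reads ranged from 0.1982% in SC13M to 6.961% in PGC12F.

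The mt-Rnr1 17-nt sequence was listed in 4 of 6 PGC libraries and in 0 of 6 SC libraries. It had 86 reads in PGC11M, 188 in PGC12F, 137 in PGC12M and 130 in PGC13F, which was 15.81% to 22.57% of the reads of the 16-nt sequence in the same library (15.81% to 20.22% in the 3 libraries other than PGC13F). Pooled over the 4 libraries that listed it, the ratio was 18.8%. The 17-nt sequence passed the cut-off in each of these, so the ratio may be too high for the others. At this ratio, the 17-nt sequence would have fallen below the lowest listed count in 5 of the 8 libraries that did not list it. In the remaining 3, namely PGC11F, SC11M and SC12M, this ratio would have given 125.8, 90.42 and 89.85 reads, above the lowest counts of 109, 67 and 85. Listing in PGC libraries alone was found for 3 of the 97 sequences listed in at least 3 libraries (3.09%).

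The mt-Nd3 sequences were listed in 6 libraries, and all 4 libraries of E13.5 were among these. Their sum was highest in SC11M with 64.69 rpm, followed by PGC13F with 49.42, PGC13M with 41.76, SC13F with 36.65, PGC11M with 28.59 and SC13M with 21.17 rpm. None of the 4 sequences was listed at E12.5 or in PGC11F and SC11F. The 27-nt sequence was listed in 5 libraries, with 74 reads in SC11M, 94 in PGC13F, 96 in SC13M, 115 in PGC13M and 132 in SC13F. The lowest counts listed in those libraries were 67, 90, 66, 88 and 105 reads, so these levels were near the cut-off. Absence at E12.5 was a property of 25 of the 97 sequences (25.8%), and the E12.5 libraries listed 41 to 59 sequences against 71 to 103 at E13.5.

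The 21-nt mt-Nd3 sequence was listed in male libraries alone, with 139 reads in PGC11M, 107 in PGC13M and 211 in SC11M. Listing in male libraries alone was found for 7 of the 97 sequences listed in at least 3 libraries (7.22%). Among the female libraries, PGC13F listed the form that is 1 base shorter and lacks the final C, and C ended 6.844% of its mito-piRNA reads over all loci. The part of this difference in 3′ ends in the male listing was not tested. The 20-nt sequence had 156 reads in PGC13F and the 18-nt sequence 114 reads in SC13F, the one library to list each. The length of the leading form was 20 nt in PGC13F and 21 or 27 nt in the other 5 libraries. In PGC13M the 27-nt and the 21-nt forms were close, with 115 and 107 reads, and in SC11M they were further apart, with 74 and 211 reads.

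The mt-Rnr2 pair was listed in both female libraries of E11.5 and in no other. The 17-nt sequence had 247 reads in PGC11F and 151 in SC11F, and the 16-nt sequence had 190 and 116. The sums were 63.44 rpm in PGC11F and 46.84 rpm in SC11F, against lowest listed levels of 15.82 and 15.79 rpm. No other of the 204 sequences was listed in these 2 libraries alone (2 of 204, 0.98%). No library repeats the condition, so an effect of the day in females and of the preparation of these libraries cannot be told apart.

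Each of the other members was listed in a single library. In SC13F these were mt-Tv 29-nt with 128 reads, mt-Tn 18-nt with 130 reads and mt-Te 29-nt with 126 reads, along with the 18-nt form of mt-Nd3. In SC13M these were the 31-nt and the 30-nt forms of mt-Ts1, with 178 and 118 reads. Of the 7 members listed in 1 library, 6 were thus listed in SC13F or SC13M, the libraries with the most mito-piRNA reads and the longest lists (102 and 103 sequences). Over all sequences, 31 of the 81 listed in 1 library (38.3%) were listed in SC13F or SC13M. PGC13F alone held 30 of those 81. With these set aside, the counts were 6 of 6 members and 31 of 51 sequences (60.78%). Sequences listed in PGC13F and 1 other library were not recounted. The part of depth in this was not tested.

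Summed over the 13 sequences, the level was 166.2 ± 29.02 rpm in PGCs, from 114.4 to 189 rpm (161.6 ± 29.95 rpm without PGC13F, SD), and 108 ± 45.89 rpm in SCs, from 49.59 to 173.9 rpm (SD, n = 6 each). It was 135.8 ± 58 rpm in females and 138.4 ± 40.11 rpm in males (SD, n = 6 each). The 4 libraries of each day had 143.3 ± 42.32 (E11.5), 127.4 ± 70.88 (E12.5) and 140.6 ± 35.85 rpm (E13.5; SD). Only the first of these comparisons had means further apart than either SD, and the ranges overlapped there too. At E12.5 the mt-Rnr1 pair made up the whole sum in 4 of 4 libraries. As a share of the mito-piRNA reads, the sum ranged from 0.8565% in SC13M (95% Wilson interval 0.7856% to 0.9337%) to 6.961% in PGC12F (6.578% to 7.365%).

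Across all sequences, 97 were listed in at least 3 libraries and entered the edgeR fit, and 4 of the 13 members were among them: the mt-Rnr1 pair and the 21-nt and 27-nt forms of mt-Nd3. Between SCs and PGCs 0 of these 4 passed an adjusted p of 0.05 with edgeR, against 2.06% of all 97 sequences, and 1 had an unadjusted p under 0.05 (9.28% of the 97). That was mt-Rnr1 17-nt, which was also the 1 member that DESeq2 called, where 14.4% of the sequences were called. It entered the 97 through PGC libraries alone and so had to differ, and neither call is evidence of a difference between the cell types. Between the sexes edgeR called 0 of the 4 members and 0% of the 97 sequences, with 0 members at an unadjusted p under 0.05 (4.12% of the 97). DESeq2 called 0 members there and 3.09% of the sequences, with 1 member and 17 of the 97 sequences at an unadjusted p under 0.05. That member was mt-Nd3 21-nt, which entered the 97 through male libraries alone and so had to differ. The exact permutation test called 0 members between the sexes, adjusted or not, where 11.3% of the sequences had an unadjusted p under 0.05. Between the days edgeR and DESeq2 called 0 members and 0% of the 97 sequences, again with 0 members at an unadjusted p under 0.05 (2.06% of the 97 with edgeR). The exact permutation test over 34650 splits called 0 members between the days and had 1, mt-Nd3 27-nt, at an unadjusted p under 0.05 (6.19% of the 97). This sequence was listed in 1 library outside E13.5, so it too entered the 97 through the group where it is high. Between the cell types the same test gave 0 members past the adjusted threshold and 1, mt-Rnr1 16-nt, past the unadjusted one, where 13.4% of the sequences lay.

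Set beside the other mito-piRNAs, exact nuclear matches were found for 7 of 13 sequences with an internal mismatch (53.85%), 3 of 32 with a mismatch at the last base (9.375%) and 67 of 159 that match the mtDNA exactly (42.14%). Sequences of 1 locus overlap, so these shares are counts and were not tested. Sequences as short as 16 nt can match a genome by chance, and the part of this in the shares was not tested. By reads the shares were 86.09%, 9.345% and 60.27%. Listing in a single library was found for 7 of 13, 17 of 32 and 57 of 159 (53.85%, 53.12% and 35.85%). The median lengths were 20, 21 and 23 nt, and A was the first base of 61.54%, 75% and 62.89% of the sequences.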

How the data were processed

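The study sequenced small RNA of 12 samples. Per its methods, the authors removed adapters (Trim Galore), merged reads of the same sequence and dropped those under 10 CPM. They mapped what remained to the nuclear and mitochondrial genomes allowing 1 mismatch (Bowtie). Sequences that matched a database of PIWI-bound piRNAs, again with 1 mismatch allowed, were retained. A listed sequence thus need not be identical to a PIWI-bound one. The values deposited by the authors are raw counts, 1 for each unique sequence. Here every sequence was placed on the GRCm39 mtDNA and searched on both strands of the nuclear chromosomes with 0 or 1 mismatch, a scan that was tested on simulated data, and genes were taken from GENCODE. Positions are 1-based.

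Rpm uses the total that the study gives for each library, which counts the reads of sequences above its cut-off and is smaller than the whole library, and a sequence absent from a list was taken as 0. Sequences listed in at least 3 libraries entered edgeR's quasi-likelihood test (additive cell type, sex and day) with Benjamini-Hochberg adjustment over all 97, and 0.05 as the threshold. Exact permutation tests were two-sided and used log2(rpm + 1). DESeq2, other normalizations, filters, treatments of absent sequences, blocks of matched pairs and leaving out each library were alternatives. Each condition is 1 library, so p-values measure the spread between libraries that also differ in the other factors. Sequences named are the mt-Nd3 and mt-Rnr1 members, the 5 with the most reads, those past the threshold and those with an exact nuclear match. The rest were named after their values were seen. The members and these lists were chosen with earlier results of these data known. The tests were run in edgeR 4.0.16 and DESeq2 1.42.0 (R 4.3.3), and all else in Python 3.11.15 (scipy 1.17.1, numba 0.67.0, pandas 2.3.3, numpy 2.4.6).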

Additional observations from a re-analysis of the deposited data

Results flagged for a closer look

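Among the 4 libraries of E11.5, SC11F stood apart in the summed level of the 13 sequences, with 80.7 rpm against 158.2 to 173.9 rpm in the other 3. Its gap to the nearest library took up most of the range of the group. In 28 groups examined this was the one so marked, and chance marks about 5% of groups.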

How the results depend on the processing

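The number of members past an adjusted p of 0.05 was 0 for cell type, sex and day, and stayed at 0 without each library in turn (0 to 0) and under the other alternatives, apart from 1 member by cell type with DESeq2 (mt-Rnr1 17-nt, which passed the filter through PGC libraries alone). The log2 difference of mt-Rnr1 16-nt between SCs and PGCs lay between -1.34 and -0.88 in all 22 settings, with adjusted p from 0.1837 to 1. Its difference between males and females, 0.19 in the reported fit, was -0.024 with TMM, -0.28 with file totals, -0.33 with DESeq2 and -0.079 to 0.39 without each library in turn. That of mt-Rnr1 17-nt, -0.22, was -1.04 to 0.61 without each library in turn. Its difference of E13.5 from E11.5, 0.22, was -0.55 with DESeq2 and -2.09 to 2.45 without each library in turn. The log2 difference of mt-Nd3 27-nt between SCs and PGCs, 2.05, was -0.068 with absent sequences set to the lowest count, and that of mt-Nd3 21-nt, -0.87, was -2.19 to 0.093 without each library in turn. The causes were not tested. The summed level by day, without a difference in rpm between E13.5 and E11.5, differed by -0.60 (log2) as a share of the mito-piRNA reads, whose mean total was higher at E13.5. The log2 difference of the sum between SCs and PGCs was -0.88 to -0.52 without each library in turn, that between the sexes -0.14 to 0.25 and that by day -0.26 to 0.11. With 1 mismatch allowed, 12 of the 13 members (92.31%) had a nuclear match in place of 7. That share was 84.38% for sequences with a mismatch at the last base and 57.23% for those that match the mtDNA exactly. The shortest members had many such matches, 20 with 1 mismatch for mt-Rnr1 16-nt. The sum without mt-Rnr1 16-nt, or without the pair, was 0 in 2 or 4 libraries and was not computed on a log scale. The labels give no replicate numbers, and fits with blocks of libraries matched on the other factors called 0 members for cell type and sex. Levels under the authors' cut-off of 10 CPM cannot be seen, which limits every absence given above. The values without PGC13F as a library apart in its 3′ ends were chosen after the data had been seen.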
